A study of Mus musculus with 18 samples.

Results

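The 9 genes described here are Artn, Doc2b, Moxd1, Dio2, Spock3, Rgs2, Fkbp5, Mab21l1 and 2810030E01Rik, out of 23337 genes in the count table. They were chosen by their read counts at D12, 6 days after a pulse of GLI1, as the genes with the clearest difference between pulsed and control cells. The D12 values of these genes are therefore a description and carry no test. All 9 were among the 14892 genes that passed the filter on low counts, and each was followed in every library from D5 to D12. Mab21l1 passed it through its D12 GLI1 OE libraries alone, with at most 5 reads in any other library. In outline, Doc2b rose in GLI1 OE cells already at D6. 2810030E01Rik lay lower in those cells at D6 and higher at D8, though neither single-day difference passed the test. Moxd1, Mab21l1 and Rgs2 reached their highest levels in GLI1 OE cells at D12 alone.

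Hedgehog signals reach the genes of a cell through GLI transcription factors, of which GLI1 is an activator, and targets such as Ptch1 are switched on. The study asked how a short pulse of it alters mouse embryonic stem cells on their way to cardiomyocytes. The cells, of line GLI1-FTA and strain A2Lox.cre, were induced with doxycycline for the day between D5 and D6, washed and grown on; these are the GLI1 OE cells. GLI1 OE cells gave 3 libraries at D6 and 2 each at D8 and D12. Untreated cells of the same line gave 4 control libraries at D5, 3 at D6 and 2 each at D8 and D12. Effects of doxycycline itself and of the induced gene cannot be told apart, because the controls were never given the drug. The labels do not say whether replicates were separate cultures, so p-values measure the spread between these libraries, which may be technical.

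The 9 genes have unlike roles. Artn encodes artemin, a secreted ligand of the GDNF family that acts on sensory and sympathetic neurons through the receptor Gfra3 and the kinase Ret. Spock3 encodes a testican, a secreted proteoglycan of the SPARC family. Dio2 encodes the deiodinase that converts thyroxine into the active thyroid hormone inside cells. Fkbp5 encodes a co-chaperone of the glucocorticoid receptor and is itself a glucocorticoid target in many tissues. Rgs2 shortens signals of Gq-coupled receptors and is known for restraining such signals in heart and vascular muscle. Doc2b is a calcium sensor for vesicle fusion. Moxd1 resembles the copper monooxygenase that makes noradrenaline. Mab21l1 belongs to the MAB21 family and is needed for eye development in mice. 2810030E01Rik is an older symbol of Skida1 in the RefSeq table.

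RefSeq promoters (assembly GRCm38.p6, from 250 bases before to 50 bases after the start site) were at hand for 6 of the 9 genes. They were searched on both strands for the GLI motif GACCACCCA, the cAMP response element TGACGTCA, the TATA box TATAAA and the E-box CACGTG. Dio2 and Fkbp5 are printed because they were the members with a match, and Moxd1 because it had the largest rise in GLI1 OE cells at D12 among members with a promoter. Each is written on the gene's own strand, 5′ to 3′, with matches in capitals. Dio2 lies at chr12:90738989-90739288 on the minus strand, Fkbp5 at chr17:28486100-28486399 on the minus strand and Moxd1 at chr10:24223267-24223566 on the plus strand.
Dio2: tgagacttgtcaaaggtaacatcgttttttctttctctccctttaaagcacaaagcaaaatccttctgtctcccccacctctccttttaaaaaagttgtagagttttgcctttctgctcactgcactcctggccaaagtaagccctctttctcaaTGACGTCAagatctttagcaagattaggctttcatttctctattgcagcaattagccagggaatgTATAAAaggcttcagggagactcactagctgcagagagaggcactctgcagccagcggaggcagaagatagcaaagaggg
Fkbp5: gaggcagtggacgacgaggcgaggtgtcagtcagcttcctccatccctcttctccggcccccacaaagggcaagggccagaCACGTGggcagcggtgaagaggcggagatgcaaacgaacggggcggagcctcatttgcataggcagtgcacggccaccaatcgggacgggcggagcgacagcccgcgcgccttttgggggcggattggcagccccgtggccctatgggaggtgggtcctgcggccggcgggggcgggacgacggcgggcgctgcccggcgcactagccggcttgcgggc
Moxd1: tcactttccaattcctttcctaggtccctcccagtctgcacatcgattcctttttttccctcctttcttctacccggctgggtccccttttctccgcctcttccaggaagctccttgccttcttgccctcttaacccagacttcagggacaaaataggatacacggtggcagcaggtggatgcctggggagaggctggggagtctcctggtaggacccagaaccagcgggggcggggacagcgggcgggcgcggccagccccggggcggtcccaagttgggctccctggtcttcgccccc
In Dio2 the cAMP response element began at position -95 from the start site and the TATA box at -30, without overlap. In Fkbp5 the E-box began at -169. Among the 32851 promoters of the table, 1.79% held the cAMP response element, 13.6% the TATA box, 7.15% the E-box and 0.253% the GLI motif. The GLI motif had no match in the 6 promoters, which says only that those letters are not in this window. GC content was 44.7% in Dio2, 70.7% in Fkbp5 and 61.7% in Moxd1, against a median of 52.7% over all promoters.

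Libraries are named by the number in their column of the count table. The D5 columns carry a different label from those of later controls, and some of their numbers recur at D6. D5 controls also had higher total counts, at 24842624 to 26184339 per library, against 20834905 to 22290371 in D6 controls. In comparisons of D6 with D5, day and any separate handling of the D5 libraries therefore cannot be told apart. Total counts were 20187924 to 22608134 per library in D6 GLI1 OE cells, 20524374 to 20798195 in D8 GLI1 OE cells, 18470785 to 22301324 in D12 GLI1 OE cells and 20752024 to 26184339 in controls. Gli1 averaged 909 ± 134 CPM (counts scaled to library size) in D6 GLI1 OE cells and 14 ± 7.28 CPM in D6 controls (SD, n = 3 each), whereas D12 GLI1 OE libraries held 0.795 and 1.12 CPM and D12 controls 0.808 and 0.902 CPM. All 20 cardiomyocyte markers were detected in every library. Their summed level differed widely between replicates: it was 17213 and 1800 CPM in D8 GLI1 OE libraries 14 and 18, against 19635 and 8874 CPM in D8 control libraries 13 and 17. At D12 it was 8916 and 4260 CPM in GLI1 OE libraries 10 and 20, against 7353 and 16666 CPM in control libraries 9 and 19. Libraries 14 and 18 were the least alike pair of replicates, at a chi-square of 104 per gene, where other pairs of replicates had 5.97 to 79.1. In bulk RNA, fewer cells of a type and less RNA per cell cannot be told apart.

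Artn was at a low level until D6 and reached its highest control level at D8. In GLI1 OE cells it had 1.45, 0.712 and 1.48 CPM at D6, 5.14 and 5.40 CPM at D8, and 2.67 and 7.87 CPM at D12. In controls it had 0.239, 0.443, 0.580 and 0.549 CPM at D5, 0.553, 0.419 and 0.374 CPM at D6, 3.14 and 2.96 CPM at D8, and 0.657 and 0.636 CPM at D12. The GLI1 OE libraries lay above the controls on each of the 3 days they share. At D12 the controls were back near their D6 level while the GLI1 OE libraries were not. The rise between D6 and D8 passed the test within GLI1 OE cells (log2 fold change 2.11 ± 0.44 SE, edgeR adjusted p = 0.00208) and within controls (2.75 ± 0.47, edgeR adjusted p = 0.000679). Between D6 and D8, 20.3% of all genes were called higher in GLI1 OE cells (40.1% in either direction). In controls, 17.3% were called higher (34.8% in either direction), so a rise over this step was shared by many genes. GLI1 OE over control gave 1.42 ± 0.44 at D6 (edgeR adjusted p = 0.101) and 0.79 ± 0.48 at D8 (edgeR adjusted p = 0.867). Neither passed the threshold of 0.05.

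Spock3, the other secreted protein, began high and was lowest in GLI1 OE cells at D6. GLI1 OE libraries had 0.413, 0.522 and 0.509 CPM at D6, 1.99 and 1.73 CPM at D8, and 3.75 and 6.03 CPM at D12. Controls had 5.03, 4.35, 1.87 and 2.87 CPM at D5, 0.850, 1.35 and 1.54 CPM at D6, 1.99 and 1.26 CPM at D8, and 1.01 and 0.849 CPM at D12. The conditions overlapped at D8, and the GLI1 OE libraries lay wholly below the controls at D6 and wholly above them at D12. In controls Spock3 fell at D6 relative to D5 (-1.50 ± 0.36, edgeR adjusted p = 0.00997; lost in 2 of 12 alternatives, at 0.0575 without D6 control library 3), where 18.4% of all genes were called, 9.99% as lower and 8.39% as higher. In GLI1 OE cells it rose between D6 and D8 (1.94 ± 0.44, edgeR adjusted p = 0.00337). The difference from controls at D6 was -1.36 ± 0.41 (edgeR adjusted p = 0.0856), and at D8 it was 0.19 ± 0.46 (edgeR adjusted p = 0.974).

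Dio2 did not separate the conditions at D6 and did so from D8. Its level in GLI1 OE cells was 0.496, 0.902 and 0.786 CPM at D6, 3.38 and 4.50 CPM at D8, and 4.94 and 7.64 CPM at D12. Control levels were 0.399, 0.282, 1.58 and 0.844 CPM at D5, 0.680, 0.651 and 0.841 CPM at D6, 1.86 and 1.05 CPM at D8, and 0.505 and 0.690 CPM at D12. Every D8 and D12 GLI1 OE library exceeded every control library of any day. The increase from D6 to D8 passed the test within GLI1 OE cells (2.43 ± 0.55, edgeR adjusted p = 0.00356), and the same step in controls did not (1.00 ± 0.56, edgeR adjusted p = 0.182). The fold between conditions was 0.00 ± 0.53 at D6 (edgeR adjusted p = 1) and 1.44 ± 0.60 at D8 (edgeR adjusted p = 0.799). The difference between those 2 effects was -1.43 ± 0.80 (edgeR adjusted p = 0.843), short of the threshold.

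Fkbp5 was lowest at D12 in both conditions. GLI1 OE libraries had 80.2, 81.2 and 83.1 CPM at D6, 64.0 and 89.0 CPM at D8, and 24.9 and 29.1 CPM at D12. Controls had 62.9, 59.6, 72.7 and 67.9 CPM at D5, 69.2, 75.9 and 68.8 CPM at D6, 57.0 and 60.4 CPM at D8, and 16.2 and 17.8 CPM at D12. The GLI1 OE libraries lay above the controls at D6, D8 and D12, by small margins. The fold was 0.19 ± 0.11 at D6 (edgeR adjusted p = 0.476) and 0.38 ± 0.14 at D8 (edgeR adjusted p = 0.778). Its fold at D12, 0.67 ± 0.15, was the smallest of the 9.

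Rgs2 did not separate the conditions before D12. GLI1 OE cells had 8.23, 12.5 and 14.6 CPM at D6, 9.72 and 6.09 CPM at D8, and 30.9 and 48.1 CPM at D12. Control cells had 7.10, 4.39, 5.14 and 2.41 CPM at D5, 7.10, 12.2 and 12.1 CPM at D6, 7.17 and 5.27 CPM at D8, and 10 and 5.57 CPM at D12. Conditions overlapped at D6 and D8, and both D12 GLI1 OE libraries stood above the other 16 libraries. Controls rose at D6 relative to D5 (1.14 ± 0.35, edgeR adjusted p = 0.0364), a call that was lost in 7 of 12 alternative settings. The fold between conditions was 0.17 ± 0.37 at D6 (edgeR adjusted p = 0.909) and 0.35 ± 0.46 at D8 (edgeR adjusted p = 0.947).

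Doc2b was the one member that passed the test between conditions at D6, during the pulse. It had 4.63, 2.37 and 3.84 CPM in D6 GLI1 OE libraries against 0.383, 0.233 and 0.654 CPM in D6 controls. The lowest GLI1 OE library was above the highest control by a wide margin, and the log2 fold change was 3.08 ± 0.52 (edgeR adjusted p = 0.00326). The call was kept in all 12 alternative settings, with an adjusted p of 2.49e-06 to 0.0251. At D6, 616 of 14892 genes, or 4.14%, were called, 3.02% of all genes being higher. One of the 9 members among them is a small count and is not read as a property of the group.

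After the pulse, Doc2b stayed above the controls in each GLI1 OE library, and the controls were highest at D8. GLI1 OE libraries had 2.54 and 2.68 CPM at D8 and 0.681 and 2.55 CPM at D12. Controls had 0.479, 0.202, 0.497 and 0.295 CPM at D5, 1.06 and 1.48 CPM at D8, and 0.101 and 0.0530 CPM at D12. At D12 this was 69 counts in GLI1 OE cells and 3 in controls, a ratio of 22.2 (7.30 to 110 as exact 95% interval, for counting error only, and no test of the conditions). In controls the rise from D6 to D8 was 1.58 ± 0.56 (edgeR adjusted p = 0.0431) and was lost in 6 of 10 alternatives. The D8 fold between conditions was 1.04 ± 0.58 (edgeR adjusted p = 0.859).

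Moxd1 was high in D12 GLI1 OE cells, with a wide spread between replicates at D8 and D12. GLI1 OE libraries had 1.12, 1.33 and 0.925 CPM at D6, 0.555 and 4.45 CPM at D8, and 15.4 and 47.8 CPM at D12. Controls had 4.75, 5.08, 2.45 and 4.14 CPM at D5, 2.72, 1.91 and 1.73 CPM at D6, 0.487 and 0.479 CPM at D8, and 2.63 and 2.02 CPM at D12. In controls it was lowest at D8, and the D8 over D6 change of -2.12 ± 0.73 (edgeR adjusted p = 0.0370) was lost in 5 of 10 alternatives. At D6 the GLI1 OE libraries lay below the controls (-0.91 ± 0.58, edgeR adjusted p = 0.520).

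At D8 the Moxd1 difference rested on library 18, the one with the lowest summed cardiomyocyte markers. The fold over controls was 2.36 ± 0.77 (edgeR adjusted p = 0.711). It was 3.17 without library 14 (edgeR adjusted p = 0.0476) and 0.20 without library 18 (edgeR adjusted p = 1). The change from D6 to D8 in GLI1 OE cells was 1.15 ± 0.64 (edgeR adjusted p = 0.164), and it was 1.97 without library 14 (edgeR adjusted p = 0.0156) and -1.0 without library 18. Whether the makeup of library 18 had a part in its Moxd1 level was not tested.

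Mab21l1 was close to undetected before D12. GLI1 OE libraries had 0, 0.0475 and 0 CPM at D6, 0.0463 and 0.227 CPM at D8, and 3.29 and 7.33 CPM at D12. Controls had 0.199, 0.121, 0 and 0 CPM at D5, 0, 0 and 0.0934 CPM at D6, 0 and 0.0436 CPM at D8, and 0.202 and 0.106 CPM at D12. In reads, this was 222 in D12 GLI1 OE cells and 6 in D12 controls, a ratio of 35.8 among the values the choice used. At D8 there were 6 reads in GLI1 OE cells and 1 in controls, a ratio of 6.26 whose interval of 0.760 to 288 includes no difference. At D6 the 1 and 2 reads allow no fold.

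2810030E01Rik lay on opposite sides of the controls at D6 and D8. It had 14.4, 14.2 and 15.2 CPM in D6 GLI1 OE libraries against 19.8, 17.8 and 20.4 CPM in D6 controls. It had 42.1 and 53.1 CPM in D8 GLI1 OE libraries against 25.0 and 24.2 CPM in D8 controls, and 8.92 and 13.8 CPM in D12 GLI1 OE libraries against 5.05 and 3.24 CPM in D12 controls. D5 controls had 24.9, 22.5, 20.5 and 18.4 CPM. On all 3 days the conditions were apart without overlap, GLI1 OE being the lower at D6 and the higher at D8 and D12. The fold was -0.40 ± 0.18 at D6 (edgeR adjusted p = 0.285) and 0.95 ± 0.22 at D8 (edgeR adjusted p = 0.489), where it ranked 14 by p among all genes.

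The difference between these 2 effects of 2810030E01Rik, -1.36 ± 0.28, passed the test of the difference itself (edgeR adjusted p = 0.0482), a call made for 0.631% of all genes, or for 0.0672% in the same direction. The call is fragile. It was lost in each of the 10 fits that left out 1 library, with an adjusted p of 0.0552 to 0.190, and with adjacent library numbers as a block the adjusted p was 0.152. Within GLI1 OE cells the rise from D6 to D8 was 1.70 ± 0.20 (edgeR adjusted p = 3.89e-05) and was kept in all 10 alternatives, as were those of Artn, Dio2 and Spock3. These 4 members were the ones called between D6 and D8 in GLI1 OE cells, all higher, against 20.3% of all genes called higher. Within controls the same step of 2810030E01Rik was 0.35 ± 0.20 (edgeR adjusted p = 0.185).

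**Figure D1:**
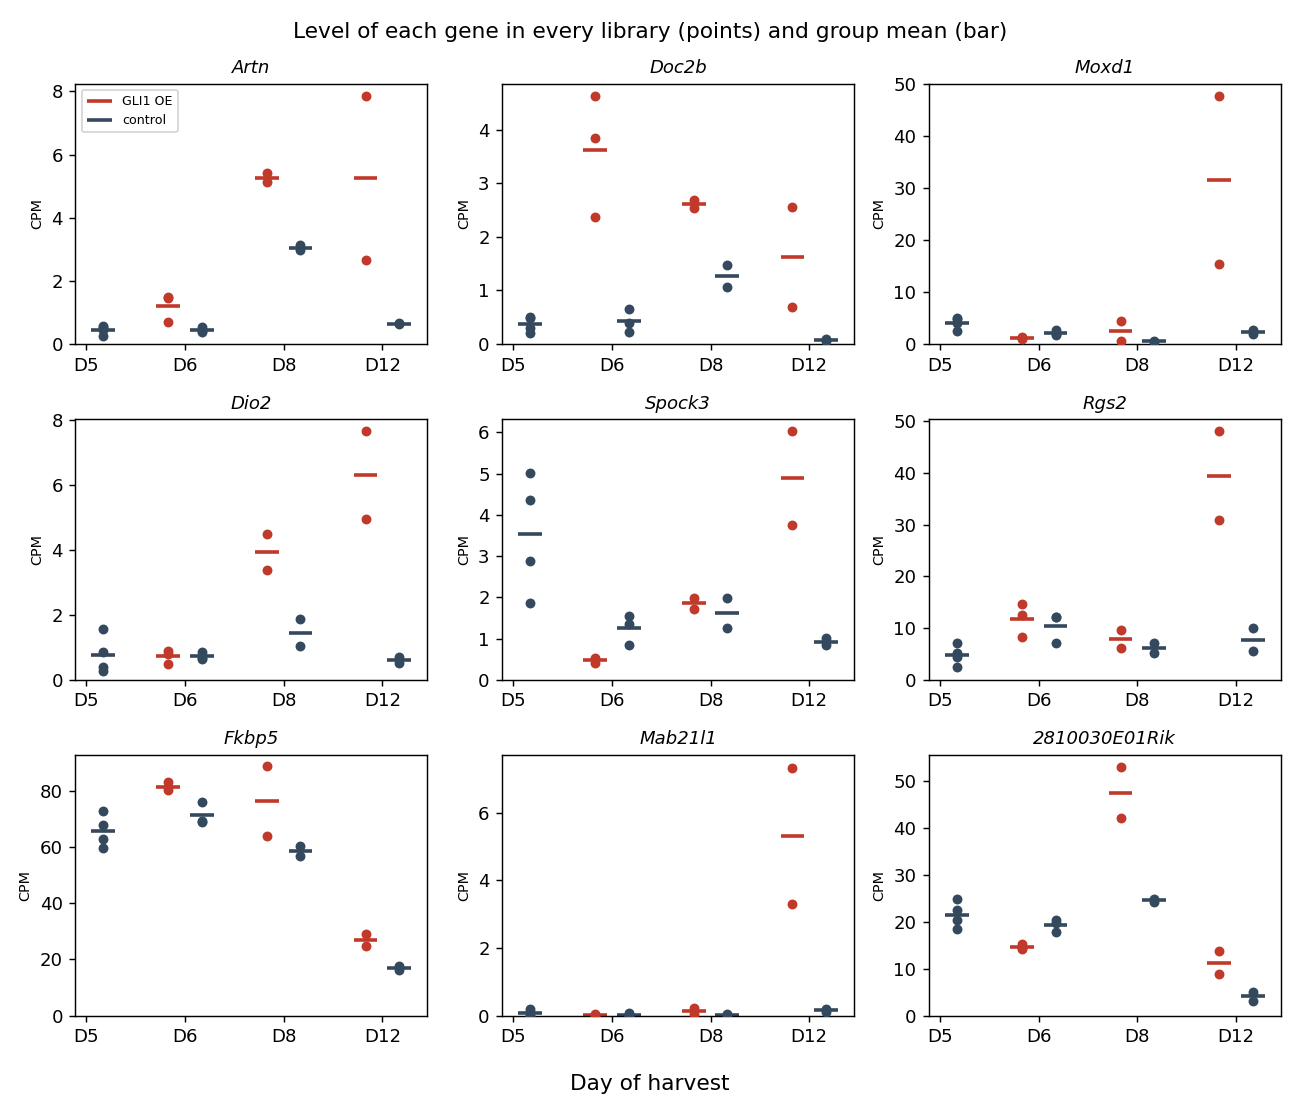
Level of each of the 9 genes in every library (points, CPM on the vertical axis) by day of harvest, with GLI1 OE left of control and a bar at the group mean. Moxd1, Rgs2 and Mab21l1 stand highest in GLI1 OE cells at D12, 2810030E01Rik is highest in GLI1 OE cells at D8, and Fkbp5 is lowest at D12 in both conditions.

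Across the members, the order of group levels fell into several types. Moxd1, Dio2, Spock3, Rgs2 and Mab21l1 had their highest group mean in D12 GLI1 OE cells. For Spock3 that group, at 3.75 and 6.03 CPM, overlapped the D5 controls, which were next in order. Artn and 2810030E01Rik were highest in D8 GLI1 OE cells. For Artn the D8 and D12 GLI1 OE groups, with means of 5.27 and 5.27 CPM, overlapped. Doc2b and Fkbp5 were highest in D6 GLI1 OE cells, which overlapped D8 GLI1 OE cells in both genes. The lowest group, with no overlap with the next, was D12 control for Doc2b, Fkbp5 and 2810030E01Rik, D8 control for Moxd1, and D6 GLI1 OE for Spock3. For Dio2 the D12 controls overlapped the D6 controls.

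Counted over members, 3 of 9 had every D6 GLI1 OE library above every D6 control (Artn, Doc2b and Fkbp5; 13.2% of all genes did) and 3 had every one below (Moxd1, Spock3 and 2810030E01Rik; 13.8% of all genes). At D8, 7 of 9 lay wholly above the controls, the exceptions being Spock3 and Rgs2, against 17% of all genes. Mab21l1 counts among the 7 on 1 read in library 14 and 1 read in library 17, apart only through library size. At D8, 0 members lay wholly below, against 15.2%. Neither edgeR nor limma-voom called a gene at D8. At an unadjusted p under 0.05 there were 886 genes, or 5.95%, including 4 members (Moxd1, Dio2, Fkbp5 and 2810030E01Rik). DESeq2 called 40 genes at D8, of which 2810030E01Rik was the one member (DESeq2 adjusted p = 0.00775). The median log2 fold change of the 9 genes was 0.95 at D8 against 0.01 over all genes, and 0.00 at D6 against -0.02. Both medians are a description and include Mab21l1, which passed the filter only through the D12 GLI1 OE libraries. Its values rest on 6 and 1 reads at D8 and on 1 and 2 reads at D6.

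**Figure D2:**
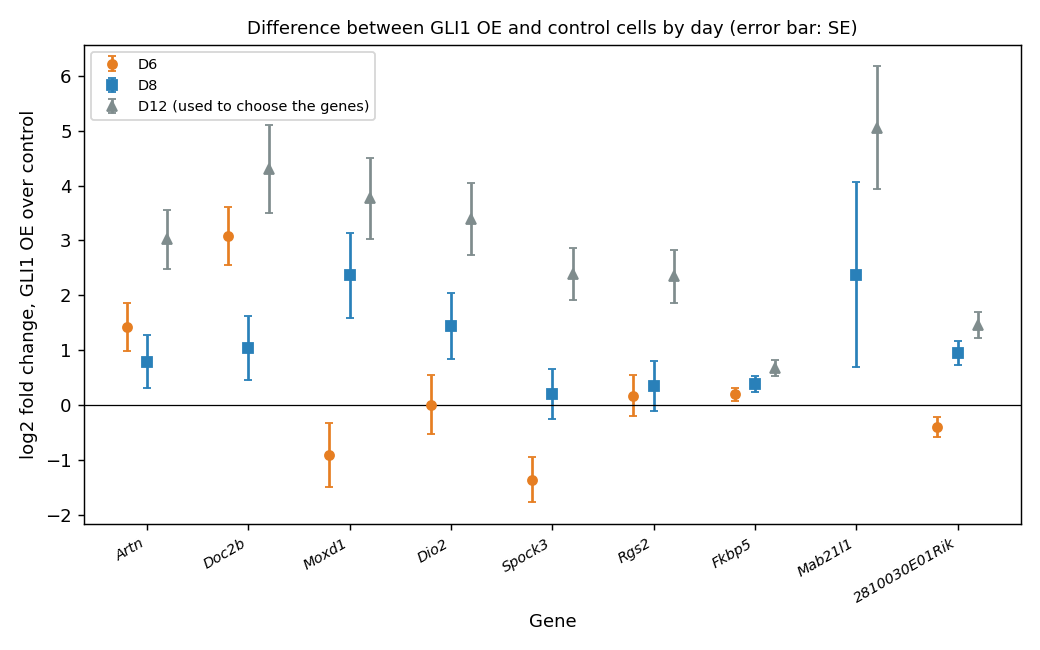
Log2 fold change of GLI1 OE over control for each gene at D6, D8 and D12, with SE as error bars. The D12 values, from 0.67 for Fkbp5 to 5.05 for Mab21l1, were used to choose the genes. Doc2b is high at D6 and 2810030E01Rik is below 0 at D6 and above 0 at D8. Mab21l1 has no D6 point because 1 and 2 reads allow no fold.

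At D12, where the genes were chosen, the log2 fold changes of GLI1 OE over control were 3.02 ± 0.54 for Artn, 4.30 ± 0.80 for Doc2b, 3.76 ± 0.73 for Moxd1, 3.39 ± 0.66 for Dio2 and 2.39 ± 0.48 for Spock3. They were 2.34 ± 0.48 for Rgs2, 0.67 ± 0.15 for Fkbp5, 5.05 ± 1.12 for Mab21l1 and 1.45 ± 0.23 for 2810030E01Rik. No library of either condition overlapped in any of the 9, which held for 17.9% of all genes in this direction and follows from the choice. In order of p the members held ranks 1, 2, 4, 6, 7, 8, 9, 10 and 12 of 14892. Just among them stood 4930513N10Rik at rank 3 (log2 fold change 1.98), Kcnh1 at rank 5 (3.80) and Zfp111 at rank 11 (0.93), and just outside Six2 at rank 13 (7.13). None of the 14892 genes was called at D12 by edgeR, against 840 (5.64%) at an unadjusted p under 0.05, 14 by DESeq2 and 1 by limma-voom. The model without GLI1 OE library 10 called 5 genes.

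The change between D8 and D12 is described without a test because it shares the D12 libraries. The log2 fold change of D12 over D8 was -2.07 in GLI1 OE cells and -2.57 in controls for 2810030E01Rik, and -1.50 in GLI1 OE cells and -1.79 in controls for Fkbp5. It was 0.00 in GLI1 OE cells and -2.23 in controls for Artn, 0.68 in GLI1 OE cells and -1.27 in controls for Dio2, and -0.68 in GLI1 OE cells for Doc2b. In controls Doc2b had 3 reads at D12 and 58 at D8, a ratio of 0.0610 (exact 95% interval 0.0122 to 0.187). The value was 3.65 in GLI1 OE cells and 2.25 in controls for Moxd1, 2.32 in GLI1 OE cells and 0.32 in controls for Rgs2, and 1.40 in GLI1 OE cells and -0.80 in controls for Spock3. Mab21l1 had 222 reads at D12 and 6 at D8 in GLI1 OE cells, a ratio of 40.4. At D12 the Artn and Doc2b controls were thus below their D8 level, and the Mab21l1 and Rgs2 GLI1 OE libraries above theirs.

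**Figure D3:**
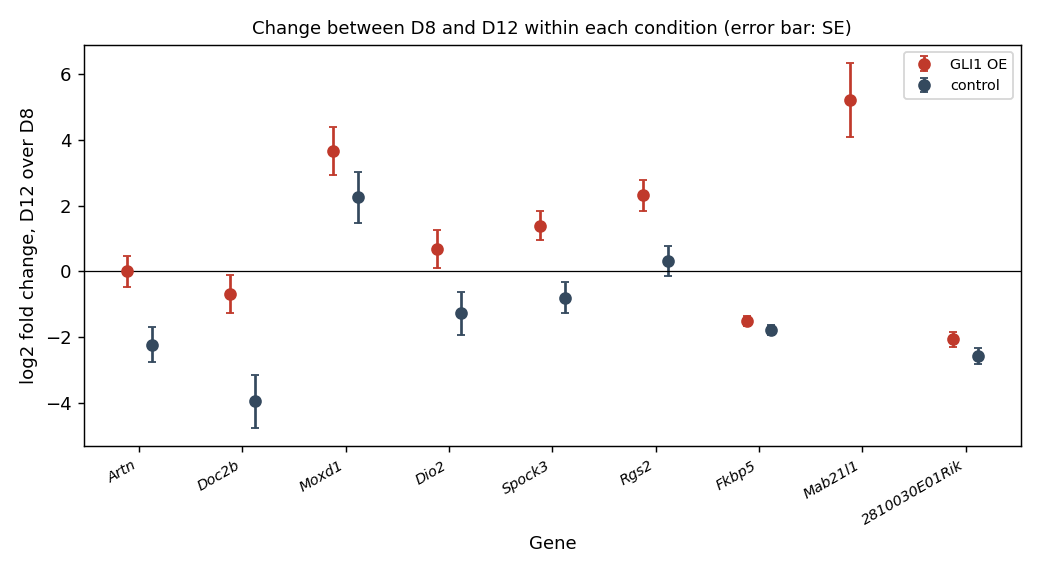
Log2 fold change of D12 over D8 within GLI1 OE cells and within controls for each gene, with SE as error bars. Controls lie below 0 for Artn, Doc2b, Dio2, Spock3, Fkbp5 and 2810030E01Rik, and the highest GLI1 OE points are those of Mab21l1 (5.22) and Moxd1 (3.65). The Mab21l1 control, with 1 read at D8, has no point.

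The replicate libraries were not equal. In D12 GLI1 OE cells every one of the 9 genes was higher in library 20 than in library 10, while 50.4% of all genes were. The ratio of library 20 to library 10 was 3.74 for Doc2b, 3.10 for Moxd1, 2.95 for Artn and 2.23 for Mab21l1, and 1.17 to 1.61 for the other 5. Without library 20 the D12 log2 fold change was 2.04 for Artn, 3.06 for Doc2b, 2.74 for Moxd1, 2.01 for Spock3 and 4.37 for Mab21l1. Library 20 also had the lower cardiomyocyte marker sum. Library 10 had a sum between those of control libraries 9 and 19 (8916 against 7353 and 16666 CPM). The 9 genes were 1.54 (Fkbp5) to 16.3 (Mab21l1) times as high in library 10 as in library 9, with 9.78 for Dio2, 6.75 for Doc2b, 5.86 for Moxd1 and 4.06 for Artn. Against library 19 the ratios were 1.40 (Fkbp5) to 31.1 (Mab21l1). Ratios above 1 follow from the choice of the genes and say nothing about cell makeup. These are single libraries and D12 values, and the part of cell makeup was not tested. At D8, 7 of 9 members were higher in library 18 than in library 14, while 51.3% of all genes were. The ratio was 8.02 for Moxd1 and 4.91 for Mab21l1, the latter from 5 reads against 1. For Artn and 2810030E01Rik, library 14 alone exceeded the 2 controls by 1.64 and 1.73 times and by 1.68 and 1.74 times.

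**Figure D4:**
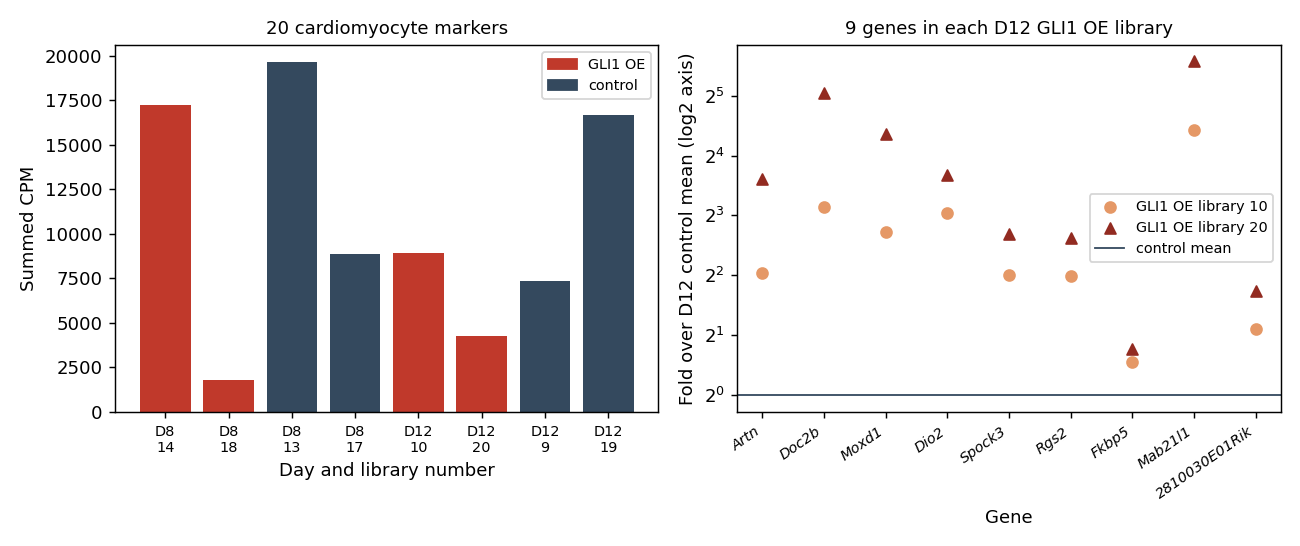
Left, summed CPM of 20 cardiomyocyte markers in each D8 and D12 library, GLI1 OE before control; library 18 is lowest at 1800 CPM. Right, fold of each gene in D12 GLI1 OE libraries 10 and 20 over the mean of the D12 controls on a log2 axis; library 20 lies above library 10 for all 9 genes.

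Markers of other cell types are given by their summed levels, since edgeR called no gene at D8 or D12. At D8, 2 of 11 cardiac progenitor markers had an unadjusted edgeR p under 0.05, against 5.95% of all genes. They were Fgf8, at 4.22 ± 3.46 CPM in GLI1 OE cells and 0.530 ± 0.502 CPM in controls, and Tbx1, at 3.14 ± 3.91 CPM in GLI1 OE cells and 0.331 ± 0.283 CPM in controls (SD, n = 2 each). The median log2 fold change of the 11 markers was 0.23, and the means of Mesp1, Pdgfra and Mef2c were lower in GLI1 OE cells. Of the other lists, 2 of 10 neural, 1 of 14 smooth muscle and mesenchyme, 1 of 10 endothelial and 1 of 9 blood markers had such a p. Summed smooth muscle and mesenchyme markers were 13651 and 15768 CPM in D12 GLI1 OE libraries against 16882 and 17350 CPM in D12 controls (14 markers). In D12 GLI1 OE libraries the sums were 85.4 to 94.3 CPM for endoderm, 34.6 to 51.6 CPM for neural, 448 to 621 CPM for endothelial and 82.8 to 131 CPM for blood markers, 96.9 to 112 CPM for neural crest and 669 to 746 CPM for cardiac progenitor markers. In D12 controls they were 65.9 to 75.7 CPM for endoderm, 37.9 to 45.9 CPM for neural, 467 to 617 CPM for endothelial and 72.1 to 109 CPM for blood markers, 121 to 127 CPM for neural crest and 775 to 902 CPM for cardiac progenitor markers. Endoderm sums lay above the controls, those of smooth muscle, neural crest and progenitor markers lay below, and the rest overlapped. The neural sum was mostly Stmn2, at 26.8 ± 6.63 CPM in GLI1 OE cells and 33.6 ± 2.50 CPM in controls. Of 10 neural markers tested at D12, 4 had an unadjusted edgeR p under 0.05, against 5.64% of all genes. These were Nefl (0.966 ± 0.403 CPM in GLI1 OE cells and 0 in both controls), Nefm (2.71 ± 2.30 CPM in GLI1 OE cells and 0.102 ± 0.0697 CPM in controls), Mtap2 (6.15 ± 0.909 CPM in GLI1 OE cells and 2.52 ± 1.08 CPM in controls) and Elavl4 (2.71 ± 1.42 CPM in GLI1 OE cells and 1.26 ± 0.579 CPM in controls). The means of all 4 were higher in GLI1 OE cells. The part of these cell types in the D12 differences of the 9 genes was not tested. At D6, Dcx, a microtubule protein of young neurons, fell by 3.03 on the log2 scale (edgeR adjusted p = 0.00627) and was the 1 of 10 neural markers called. Its level was low in both conditions, at 0.0896 ± 0.0460 CPM in GLI1 OE cells and 0.776 ± 0.240 CPM in controls (SD, n = 3 each). Sox18, an endothelial transcription factor, rose by 2.42 (edgeR adjusted p = 0.0324), 1 of 10 endothelial markers. Alb, the serum albumin gene, was 1 of 11 endoderm markers called, at 0.952 ± 0.121 CPM in GLI1 OE cells and 0.0142 ± 0.0245 CPM in controls (SD, n = 3 each, edgeR adjusted p = 0.0171). None of the 20 cardiomyocyte, 11 cardiac progenitor, 6 neural crest, 14 smooth muscle and mesenchyme or 9 blood markers was called at D6. The cardiomyocyte markers had a median log2 fold change of -1.28 at D6, with 5 of 20 at an unadjusted p under 0.05 (15.8% of all genes). Their summed level was 2137, 6018 and 2177 CPM in D6 GLI1 OE libraries 4, 12 and 16, against 5967, 13461 and 9043 CPM in D6 control libraries 3, 11 and 15. The part of this difference in the D6 values of the 9 genes was not tested.

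Calls in the gene families around the members are given for D6, where 4.14% of all genes were called; at D8 edgeR called no gene. Of 9 other GDNF ligands and receptors tested, Gdnf, the founding ligand, rose by 5.53 ± 0.68 (34.2 ± 7.65 CPM in GLI1 OE cells and 0.736 ± 0.349 CPM in controls, SD, n = 3 each, edgeR adjusted p = 0.000244). Ncam1, a GDNF co-receptor and adhesion molecule, fell by 0.88 (edgeR adjusted p = 0.0280). The artemin receptor gene Gfra3 had 1.21 ± 0.741 CPM in GLI1 OE cells and 1.19 ± 1.05 CPM in controls, and Ret had 16.8 ± 10.7 CPM in GLI1 OE cells and 14.1 ± 10.8 CPM in controls; neither was called. Of 21 genes of the glucocorticoid list, Hsd11b2, which inactivates glucocorticoids, rose by 2.81 ± 0.37 (581 ± 57.8 CPM in GLI1 OE cells and 82.6 ± 17.8 CPM in controls, edgeR adjusted p = 0.000443). It was the 1 gene called there.

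Of 16 thyroid hormone genes, the receptor Thra fell by 0.68 (edgeR adjusted p = 0.0189). Of 15 RGS genes, Rgs8 rose by 2.43 (edgeR adjusted p = 0.000579) and Rgs5, known from pericytes, by 1.04 (edgeR adjusted p = 0.0160). Of 22 genes of calcium-triggered fusion, Doc2g, a relative of Doc2b, rose by 1.70 (edgeR adjusted p = 0.0111) and Unc13c, a vesicle priming factor, fell by 1.77 (edgeR adjusted p = 0.0308). Of 5 copper monooxygenase and catecholamine genes, Gch1, which makes the cofactor tetrahydrobiopterin, fell by 2.17 (edgeR adjusted p = 0.0111). None of 7 SPARC family genes was called, Sparc itself having a log2 fold change of -0.39 (edgeR adjusted p = 0.413), and none of 6 MAB21 family genes, Itpripl2 having -0.10 (edgeR adjusted p = 0.841). The median log2 fold change at D6 was -0.39 for the GDNF list, 0.02 for the glucocorticoid list, -0.03 for the thyroid list, 0.19 for RGS, -0.33 for fusion, -1.56 for copper, -0.10 for SPARC and -0.08 for MAB21, against -0.02 over all genes. Hedgehog targets stood at 3.83, with 11 of 20 called higher and 1 lower, among them Ptch1 (4.25) and Foxl1 (6.51), with edgeR adjusted p of 1.53e-05 and 6.70e-06. The 20 include Gli1, the gene the pulse induced, which is 1 of the 11 and rose by design. The median of the 20 was 0.86 at D8 and 0.86 at D12. At D8, 8 of them had an unadjusted edgeR p under 0.05 (5.95% of all genes), and at D12, 4 did (5.64%). Of the 8, Ccnd1 was lower in GLI1 OE cells and the rest higher, and the 4 were higher. Foxf1a, Foxf2, Foxd1, Foxa2 and Nkx3-2 at D8 had an SD above their GLI1 OE mean. So did Foxf2, Foxd1 and Nkx3-2 at D12. With 2 libraries, those means rest mostly on 1 of them (Foxf2 at D8, 10.3 ± 13.9 CPM). The D12 sums of the 20 targets were 1230 and 1345 CPM in GLI1 OE libraries, against 1090 and 1040 CPM in controls.

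The genes whose log2 CPM most resembled each member over the 18 libraries were Zfp157 and Pygo1 for Artn (Pearson r = 0.94 and 0.91), Sox11 and Rnf122 for Doc2b (0.87 and 0.87), and Man2a1 and Khdrbs3 for Moxd1 (0.84 and 0.80). For Dio2 they were Cacng7 and Emilin3 (0.86 and 0.82), for Spock3 Akap17b and Zscan18 (0.82 and 0.81), and for Rgs2 Chchd6 and Ccdc57 (0.81 and 0.80). For Fkbp5 they were Lrrc14 and Grlf1 (0.98 and 0.98), for Mab21l1 Il1rap and Kctd12 (0.86 and 0.84), and for 2810030E01Rik Hs2st1 and Galnt4 (0.96 and 0.94). These are descriptions over libraries that share day and depth. Over the 14 libraries without D12, r was 0.97 for Artn and Zfp157 and 0.52 for Fkbp5 and Lrrc14. Among the members themselves, over the 14 libraries without D12, r was 0.78 for Artn and Dio2 and 0.46 for Moxd1 and Mab21l1, the pairs with the highest r over all 18. Mab21l1 had at most 5 reads in any of those 14 libraries, so the 0.46 rests on values near the floor and says little about likeness.

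The authors' TPM values, which take gene length into account, allow levels to be compared between genes at D5, before the pulse. Fkbp5 averaged 41.2 ± 3.44 TPM and 2810030E01Rik 11.3 ± 1.52 TPM (SD, n = 4 controls). Rgs2, Moxd1 and Spock3 averaged 3.48 ± 1.38, 2.89 ± 0.823 and 2.45 ± 0.980 TPM, which overlapped. Artn, Dio2, Mab21l1 and Doc2b were all below 1 TPM in every replicate, at means of 0.417, 0.292, 0.216 and 0.205 TPM. Mab21l1 had a TPM above 0 in all 4 replicates, against 0 reads in count libraries 3 and 4. At the start, the genes thus ranged from well expressed to nearly silent.

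In the authors' deposited table for D6, Doc2b had a log2 fold change of 3.11 (adjusted p = 2.79e-08) and 2810030E01Rik -0.39 (adjusted p = 0.0270), among 1946 of 15456 genes with an adjusted p under 0.05. In the authors' deposited table for D8, 11 of 15138 genes passed and none was one of the 7 members matched there; Moxd1 and Mab21l1 were not matched. In the authors' deposited table for D12, 78 of 14917 genes passed, 73 of them higher, including Artn, Moxd1, Dio2, Spock3, Rgs2 and Mab21l1. Fkbp5 and 2810030E01Rik did not pass in the authors' deposited table for D12, and Doc2b was not matched there. That table rests on the same D12 libraries as the choice of the genes.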

How the data were processed

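PolyA RNA was measured in 18 libraries of 7 groups. The authors deposited raw read counts per gene symbol, and these entered the tests unaltered. No aligner, counting program, strand setting or genome build is given in the sources used here, so overlapping and antisense genes, and genes with near copies, are uncertain. TPM values, deposited by the authors for the D5 controls, served as levels only. The authors' deposited tables hold log2 fold changes and p-values, and the D6 table also a standard error and a test statistic (a score); column names there are those DESeq2 writes, and those of the D8 and D12 tables are those edgeR writes.

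Tests on the counts used edgeR 4.0.16 under R 4.3.3: a filter with a minimum count of 10, trimmed mean of M-values (TMM) scaling, and a robust quasi-likelihood fit with 1 coefficient per group over all 18 libraries. P-values were adjusted by Benjamini-Hochberg over the 14892 genes that passed, and called under 0.05. The standard error (SE) is the absolute log2 fold change over the root of F. CPM is the count scaled to library size after TMM. Alternatives were relative log expression size factors, no filter, DESeq2 1.42.0, limma-voom (limma 3.58.1), a fit of the compared groups alone, a block of adjacent library numbers, and leaving out each library. The fit was tested on simulated data.

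Members and gene lists were chosen with earlier results of these data known. All 9 members are named throughout. The 2 genes most like each member are named by Pearson correlation of log2 CPM (prior count of 2, mean log2 CPM of at least 1), without predicted genes, and from each list up to 3 genes called at D6 with the smallest p, or else the most highly expressed one. Gfra3 and Ret are named as receptors of artemin, and Six2 and 3 other genes for their ranks beside the members. The lists are those named with their counts in the text. Some genes that this rule names are not reported here.

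The columns of the count table carry a library number and no replicate number; 0 columns belonged to other samples. Deviations from group means correlated between adjacent numbers of the 2 conditions at D6 (r = 0.52, 0.62 and 0.45) and D8 (0.49), and not at D12 (-0.23). The pairing comes from these numbers and correlations, not from the labels. Depth limits precision for genes of a few reads, and the exact 95% intervals cover counting error only.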

Additional observations from a re-analysis of the deposited data

Results flagged for a closer look

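The effect of GLI1 OE on 2810030E01Rik differed between D6 and D8 by -1.36 on the log2 scale (edgeR adjusted p = 0.0482), the test of the difference itself. The call is fragile, as it was lost in 12 of 16 alternatives. Neither day passed on its own (edgeR adjusted p = 0.285 at D6 and 0.489 at D8). All 3 D6 GLI1 OE libraries lay below the 3 D6 controls, and both D8 GLI1 OE libraries lay above the 2 D8 controls.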

How the results depend on the processing

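Doc2b at D6 and the D8 over D6 rises of Artn in both conditions, and of Dio2, Spock3 and 2810030E01Rik in GLI1 OE cells, kept their direction and their side of the threshold under every alternative run for them. At D6 the 616 genes called were 1030 with DESeq2, 1254 with a fit of the compared groups alone and 330 to 458 with 1 library left out. At D8 the 0 genes were 40 with DESeq2 (1 member) and 0 to 49 with 1 library left out (0 to 1 members). The 94 genes of the difference between the effects at D6 and D8 were 233 with DESeq2 and 48 to 91 with 1 library left out. The 1 member there was 2 with DESeq2, 0 without the filter, 0 with the replicate block and 0 to 1 with 1 library left out. At D12 the 0 genes were 14 with DESeq2, 1 with limma-voom and 0 to 5 with 1 library left out. D6 over D5 in controls gave 1561 to 2736 genes and 1 to 2 members with 1 library left out, 1 member with limma-voom and 0 in the fit of those groups alone. D8 over D6 gave 2761 to 4358 genes and 1 to 3 members in controls (1 with limma-voom), and 3449 to 5420 genes in GLI1 OE cells, with 1 library left out.

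Several values that had not passed the test changed sign. For D6 over D5 in controls these were Artn (0.0045 without the filter, 0.056 with limma-voom, -0.22 to 0.13 with 1 library left out), Dio2 (0.21 with limma-voom, -0.37 to 0.51) and Doc2b (-0.25 to 0.48). For GLI1 OE over control at D6 they were Dio2 (-0.037 with limma-voom, -0.021 with the replicate block, -0.19 to 0.21) and Rgs2 (-0.056 to 0.37). At D8 they were Rgs2 (-0.049 to 0.65) and Spock3 (-0.10 to 0.55). For the difference between the effects they were Rgs2 (-0.49 to 0.21) and Fkbp5 (-0.40 to 0.052), and for D8 over D6 in GLI1 OE cells Fkbp5 (-0.34 to 0.11) and Moxd1 (-1.0 to 1.97). The cause was not tested. Run for the comparisons of GLI1 OE with control and their difference, and not for changes with time within a condition, the replicate block changed the call of 2810030E01Rik given in the report and no other call of a member. With the D12 pairs crossed, a setting chosen after seeing the data, 0 genes were called at D12 and 1302 had an unadjusted p under 0.05. With 1 D8 or D12 library left out, the lone library of its group is assumed to vary like the other groups.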
